A study of Mus musculus with 4 samples.

Results

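Cathepsins are proteases, most of which work in the acid interior of lysosomes and endosomes, and spleen makes them in abundance because its macrophages clear cells and its antigen-presenting cells cut proteins for display. They are made as inactive precursors, matured by cutting, and held in check by cystatins. The 8 cathepsin genes described here are Ctsc, Ctsb, Ctsd, Ctss, Ctsl, Ctsh, Ctse and Ctsz, and their members are all probe sets whose only platform gene symbol is one of these names. A probe set is a group of short array probes read as 1 value. The array read 8251 genes by name, and the 8 genes had 15 probe sets among 12422, control probe sets left out: 3 for Ctsc, 4 for Ctsb, 3 for Ctse and 1 for each other gene. The genes were chosen by earlier results of these data, namely the knockout and wild-type values of the Ctsc probe sets, so the genotype differences of all 15 are given as a description, with no test.

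The study compared spleens of nrf2 -/- mice with spleens of nrf2 +/+ littermates, all female and 5 months old, on 4 one-colour expression arrays, 2 per genotype. Both genotypes came from heterozygotes bred together. The heterozygotes descended from nrf2 +/+ parents of mixed C57B6/SJL stock and nrf2 -/- parents of mixed C57B6/129SVJ stock, so strain alleles can differ between animals. The labels call the tissue spleen and name no agent, and they place the age before severe autoimmune disease. They do not say whether an array holds 1 mouse or a pool, so spread between arrays may be technical. In a whole organ, fewer cells of a type and less RNA per cell cannot be told apart.

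Nrf2 is a transcription factor that switches on detoxification and antioxidant genes through a short DNA element in their control regions. Its gene, Nfe2l2, read 202 and 178.6 in the knockout arrays, against 3537 and 6321 in the wild-type arrays, on its probe set. The labels do not tell whether the deletion covers that probe set. Values are deposited intensities on a linear scale. Before log2 was taken, values below 185.5, the 25th percentile of all 4 arrays, were raised to that floor. Wild-type replicate 1 stood apart: over the 7453 probe sets bright enough to test, it correlated with the other arrays at Pearson's r of 0.849 to 0.851, while those 3 correlated with each other at 0.938 to 0.947. These correlations are across probe sets, which are not independent. The Gapdh control gave 3' over 5' ratios, which reflect RNA and labelling quality, of 25.5 and 34.8 on the knockout arrays, against 88.3 and 8.07 on wild-type replicates 1 and 2. The same ratio of beta-actin was 19.3 and 16.1 on the knockout arrays, against 14.4 and 8.86 on the wild-type arrays. Their part in any cathepsin result was not tested, and values with and without wild-type replicate 1 are given below.

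The control region of Ctsc, the gene on which the probe sets disagreed, is shown with that of Ctsd, whose 1 probe set read lower in both knockout arrays than in both wild-type arrays. The sequences are from RefSeq on GRCm38.p6 and run from 250 bases before to 50 after the annotated start. Promoters were found for 5 of the 8 genes. Capitals mark 2 motifs, searched on both strands: TGACNNNGC, the core of the element that Nrf2 binds, and CACGTG, the core of the element by which the factor TFEB drives lysosomal genes.
Ctsc, chr7:88277835-88278134, plus strand: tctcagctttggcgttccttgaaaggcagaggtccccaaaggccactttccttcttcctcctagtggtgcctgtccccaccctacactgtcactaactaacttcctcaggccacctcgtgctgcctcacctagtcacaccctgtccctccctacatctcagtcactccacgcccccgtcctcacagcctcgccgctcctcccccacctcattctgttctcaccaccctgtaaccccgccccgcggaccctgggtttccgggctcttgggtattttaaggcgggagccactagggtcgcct
Ctsd, chr7:142387778-142388077, minus strand: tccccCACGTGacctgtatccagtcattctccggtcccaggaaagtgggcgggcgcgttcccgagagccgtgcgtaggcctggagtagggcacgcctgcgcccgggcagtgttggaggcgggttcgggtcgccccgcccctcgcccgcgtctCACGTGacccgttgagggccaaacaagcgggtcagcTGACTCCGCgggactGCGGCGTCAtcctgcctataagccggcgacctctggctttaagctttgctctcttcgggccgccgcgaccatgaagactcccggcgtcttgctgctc
The Ctsc window held neither motif. The Ctsd window held TGACNNNGC at 2 places, 62 and 47 bases before the start, and CACGTG at 2 places, 245 and 98 bases before it. The Ctsz window held TGACNNNGC at 1 place and the Ctsl window held CACGTG at 1 place, and the Ctss window held neither. Of all 32851 promoters of this length, 12.4% held TGACNNNGC and 7.15% held CACGTG. The motifs share no bases in these windows. A match describes letters only, and its absence here says nothing about binding by either factor.

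Ctsc encodes cathepsin C, also called dipeptidyl peptidase I, which removes pairs of residues from the front of other proteases and so activates the serine proteases of neutrophils, mast cells and cytotoxic lymphocytes. Its 3 probe sets were designed from 3 different sequence records. Probe set 101019_at read 3489 and 3929.8 in the knockout arrays, against 2204 and 4680.2 in the wild-type arrays. The knockout values lay between the wild-type ones, and the log2 difference was 0.21 (SE 0.47, n = 2 per group).

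Probe set 101020_at of the same gene read 365 and 322.9 in the knockout arrays, against 1939 and 4241 in the wild-type arrays. Both knockout arrays were far below both wild-type arrays, with a log2 difference of -3.06 (SE 0.50), 8.35-fold lower. Over the 4 pairings of a knockout with a wild-type array, the difference ran from -3.72 to -2.41. Against wild-type replicate 1 alone the knockout mean differed by -2.50, and against wild-type replicate 2 alone by -3.63.

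Probe set 161251_f_at read 34.6 and 124.4 in the knockout arrays, against 2271 and 2092 in the wild-type arrays. Both knockout values were below the floor, so the fold is a bound: at least 11.8-fold lower (log2 -3.55, SE 0.46). Against wild-type replicates 1 and 2 alone the difference was -3.61 and -3.50, and the wild-type arrays were close to each other. The ending _f of its name marks probes that may bind more than 1 transcript of a family, and 101020_at carries no such mark. The part of such binding in these values was not tested.

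**Figure D1:**
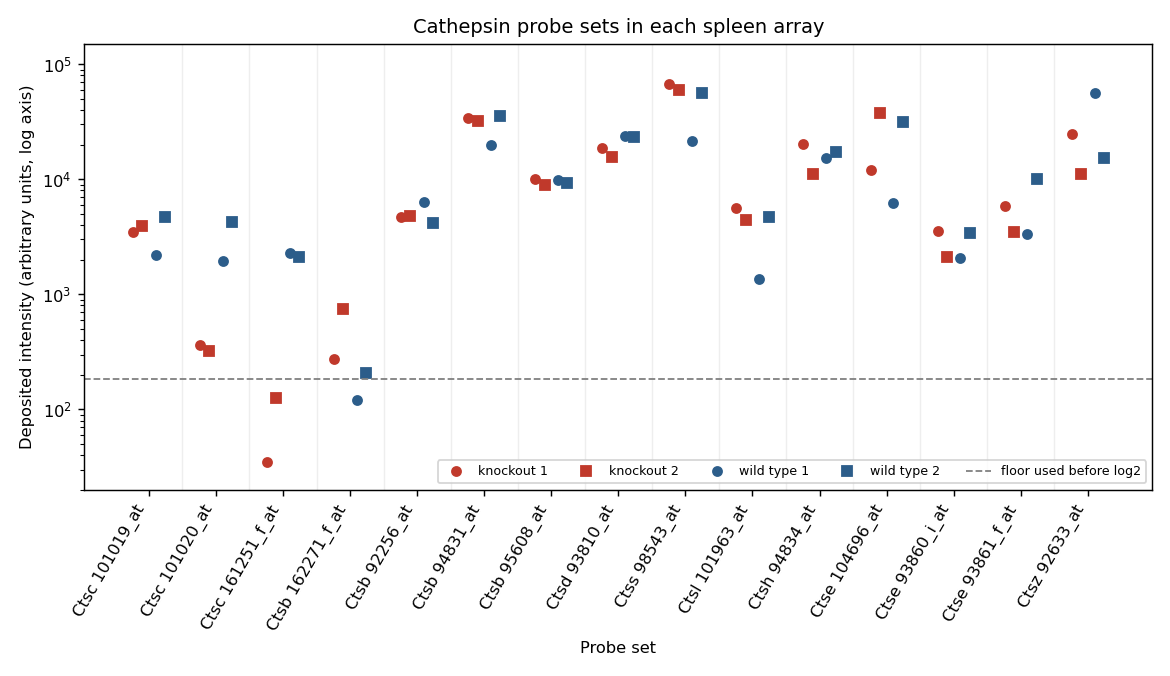
Deposited intensity (log axis, arbitrary units) of the 15 cathepsin probe sets in each array, knockout in red and wild type in blue, circles for replicate 1 and squares for replicate 2, with the floor of 185.5 as a dashed line. For Ctsc 101020_at and 161251_f_at both red points lie far below both blue points, while for Ctsc 101019_at the red points lie between the blue ones.

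Of the 3 Ctsc probe sets, 2 thus read far lower in the knockout arrays and 101019_at did not, on the same RNA. The 2 low ones differed by amounts within their errors, and their order turned with the floor at the 40th percentile (-2.58 for 101020_at and -2.19 for 161251_f_at). Between a knockout and a wild-type array the differences of the 3 probe sets spanned 3.11 to 4.45 on the log2 scale over the 4 pairings, against 1.25 between the wild-type replicates. Between the knockout replicates the span was 0.35, from 101019_at to 101020_at, since the floor made 161251_f_at equal in both. On the deposited values without a floor it was 2.02, and the 4 pairings then spanned 3.82 to 6.70. Since levels of different probe sets cannot be set against each other, this shows unequal differences and does not say which probe set reads the gene's transcripts. Where each probe set lies along the gene was not analysed here.

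The span of Ctsc was set against other genes read by several tested probe sets. Of 867 such genes, Ctsc had the widest span of genotype differences, 3.76 on the log2 scale, against a median of 0.35 over all 867. The next widest was 2.29, for Phf7. The size of 3.76 depends on the floor, since 161251_f_at lay below it in both knockout arrays: the span was 2.79 with the floor at the 40th percentile and 4.91 with a pseudocount of 16 in place of a floor. It was the widest under both, and second, at 3.67 beside 3.82 for another gene, without knockout replicate 2. Among the 287 genes with several tested probe sets free of cross-hybridisation marks, Ctsc had a span of 3.27, again the widest, from 101019_at and 101020_at, whose values were all above the floor of 185.5. Ctsc was chosen for this discordance, so its place is a description.

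**Figure D2:**
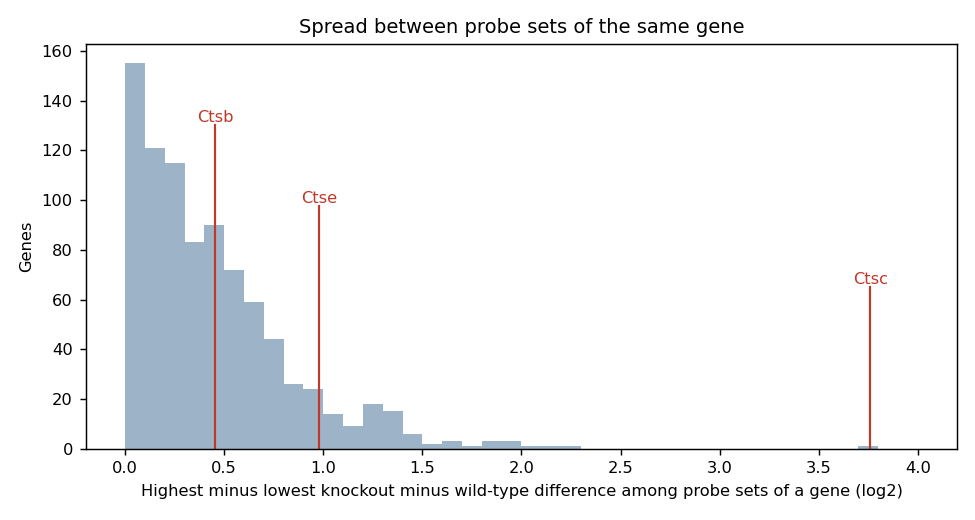
Histogram over 867 genes of the highest minus the lowest knockout minus wild-type difference (log2) among the tested probe sets of a gene, with red lines at 3 cathepsin genes. Ctsb at 0.45 and Ctse at 0.98 lie among the other genes, and Ctsc lies alone at 3.76.

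Of all tested probe sets, 11 were lower in knockout spleen by 8-fold or more, or 0.148%, and 2 of these were Ctsc probe sets. Both passed the brightness filter only through the wild-type arrays, since their knockout means lay under its limit of 468, and so had to differ. The values chose the gene, and nothing is read from the count.

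Probe sets with the profile nearest to each Ctsc probe set were found over the 4 arrays, by the root mean square difference of log2 values after subtraction of each probe set's mean. For 161251_f_at the nearest of 6703 was Gdpd3, a lysophospholipase D (distance 0.25), then Ctsc 101020_at (0.51) and Nfe2l2 (0.63). For 101020_at the nearest were Gbp2b, an interferon-induced guanylate-binding protein (0.49), Ctsc 161251_f_at (0.51) and an immunoglobulin kappa variable gene (0.60). For 101019_at they were Med10, Cav1 and Hmgcs1, all within 0.03, and the other Ctsc probe sets stood far down the order at 1.64 and 1.93. Distances over 4 arrays are loose, and small differences between them carry no order. Both low Ctsc probe sets were chosen by their knockout and wild-type values. Probe sets this near to them, Nfe2l2 included, therefore had to read lower in the knockout arrays, and nothing is read from their likeness.

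Genes beside Ctsc on chromosome 7 were also read, a choice made after its values were seen. The 4 nearest tested genes on each side had log2 differences of -0.46 to 0.43, with limma adjusted p of 0.992 for each. The genotypes overlapped for 5 of the 8. Over all tested probe sets, both knockout arrays lay below both wild-type arrays for 12.2% and above for 14.3%. With 8 genes, nothing is read from the count. Hikeshi, which encodes a nuclear import carrier of heat shock proteins, read 3441 and 4272 in the knockout arrays, against 2399 and 3421 in the wild-type arrays, so both knockout values were higher. Il16, which encodes interleukin 16, read 7724 and 5807 in the knockout arrays, against 9080 and 7821 in the wild-type arrays. Efl1, a GTPase gene of ribosome assembly, read 1069 and 1027 in the knockout arrays, against 1156 and 1369 in the wild-type arrays. Both knockout values were the lower ones for Il16 and Efl1.

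The other 7 cathepsin genes had 12 probe sets, and their differences centred near 0. The median was 0.02 on the log2 scale, from -0.81 for Ctsz to 1.21 for a dim Ctsb probe set, beside a median of 0.04 over all tested probe sets. Of the 12, 6 measured higher and 6 lower, and 11 differed by less than 2-fold. The median was 0.41 against wild-type replicate 1 alone and -0.03 against wild-type replicate 2 alone. Among the 11 of these probe sets that were tested, both knockout arrays lay below both wild-type arrays for 1, Ctsd. They lay above for 1, Ctss, while this holds for 12.2% and 14.3% of all tested probe sets. The Ctsc probe sets, whose values chose the gene, are left out of these counts.

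**Figure D3:**
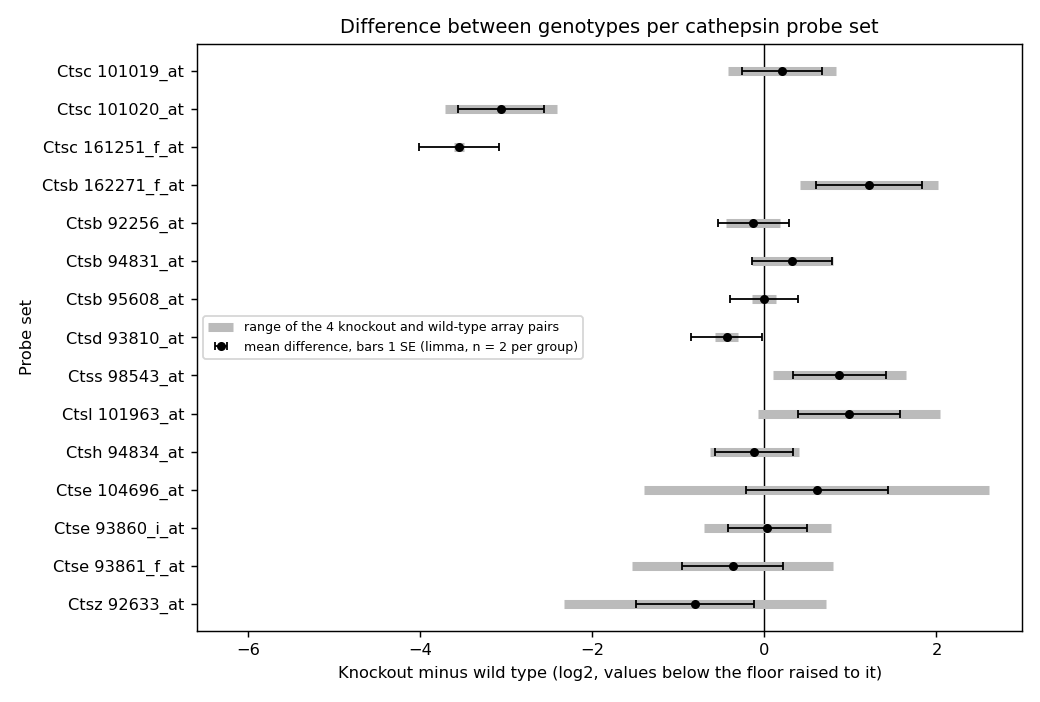
Knockout minus wild-type difference (log2) of each cathepsin probe set, as the mean with bars of 1 SE (limma, n = 2 per group), over a grey band for the range of the 4 knockout and wild-type array pairs. Ctsc 101020_at at -3.06 and 161251_f_at at -3.55 stand apart from the other 13, which lie between -0.81 and 1.21.

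Ctsb encodes cathepsin B, a cysteine protease that cuts both inside proteins and from their ends. Probe set 95608_at read 10138 and 8920.3 in the knockout arrays, against 9833 and 9237 in the wild-type arrays, and was the most even of all members (log2 -0.0031, SE 0.39). Probe set 92256_at read 4674 and 4766 in the knockout arrays, against 6373 and 4190.0 in the wild-type arrays (log2 -0.13, SE 0.41). The brightest, 94831_at, read 34064 and 32112 in the knockout arrays, against 19673 and 35536 in the wild-type arrays (log2 0.32, SE 0.46). The genotypes overlapped for all 3, and they parted mainly in wild-type replicate 1, which was the highest array for 92256_at and the lowest for 94831_at.

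The remaining Ctsb probe set, 162271_f_at, was too dim to test and carries the cross-hybridisation mark. It read 274.3 and 749.4 in the knockout arrays, against 120.2 and 205.8 in the wild-type arrays, with 1 of the 4 values below the floor. Both knockout values were the higher ones, with a log2 difference of 1.21 (SE 0.61, from a fit with dim probe sets kept). That size rests on dim values: it was 0.32 with the floor at the 40th percentile, 1.94 without knockout replicate 1 and 0.49 without knockout replicate 2. None of the other 3 Ctsb probe sets separated the genotypes this way.

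Ctss encodes cathepsin S, the cysteine protease that trims the invariant chain of class II molecules in B cells, macrophages and dendritic cells. It read 67483 and 59729 in the knockout arrays, against 21600 and 55782 in the wild-type arrays. The knockout values were above both wild-type values, but wild-type replicate 2 was close to them. The log2 difference was 0.87 (SE 0.54), and 0.19 against wild-type replicate 2 alone.

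Ctsl encodes cathepsin L, a cysteine endopeptidase with a part in the same processing in thymus. It read 5642 and 4468 in the knockout arrays, against 1365 and 4717 in the wild-type arrays. Wild-type replicate 1 was again the low array, and wild-type replicate 2 lay between the knockout arrays. The log2 difference was 0.98 (SE 0.60), and 0.09 against wild-type replicate 2 alone.

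Ctsd encodes cathepsin D, the main aspartic protease of lysosomes. It read 18805 and 15766 in the knockout arrays, against 23576 and 23179 in the wild-type arrays. The wild-type arrays were close together and both above the knockout arrays, with a log2 difference of -0.44 (SE 0.41), 1.36-fold lower. The difference was -0.45 and -0.43 against wild-type replicates 1 and 2 alone. It kept its sign under all 9 alternatives of scaling, floor, block and array left out. So did those of Ctss, Ctsl and the dim Ctsb probe set, which measured higher, and of both low Ctsc probe sets. The block cannot change these differences. Leaving out 1 array cannot turn the sign where the genotypes do not overlap, as for all of these but Ctsl. Kept signs therefore say little about how firm the differences are.

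Ctsh encodes cathepsin H, which acts mainly as an aminopeptidase. It read 20140.2 and 11106 in the knockout arrays, against 15298 and 17203 in the wild-type arrays. Both wild-type values lay between the knockout values (log2 -0.12, SE 0.45).

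Ctsz encodes cathepsin Z, a carboxypeptidase also called cathepsin X. It read 24964 and 11064 in the knockout arrays, against 55816 and 15184 in the wild-type arrays. The genotypes overlapped, and the log2 difference of -0.81 (SE 0.69) came to 0.13 against wild-type replicate 2 alone. Wild-type replicate 1, the lowest array for Ctss and Ctsl, was the highest for Ctsz.

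Ctse encodes cathepsin E, an aspartic protease that sits mostly outside lysosomes and is known in the stomach, immune cells and red cells. Probe set 104696_at read 11955 and 38032 in the knockout arrays, against 6204 and 31467 in the wild-type arrays. Replicate 2 of each genotype was the higher, and the genotypes overlapped (log2 0.61, SE 0.83). Leaving out wild-type replicate 1 turned the difference to -0.56, and leaving out knockout replicate 2 to -0.23.

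Probe sets 93860_i_at and 93861_f_at are annotated to Ctse but share a source record that is not that of 104696_at and that may not be a Ctse transcript. Both also carry the cross-hybridisation mark, so their values, and the span of 0.98 for Ctse that they enter, may not be those of Ctse. Without the marked probe sets, these and the dim one of Ctsb, the median of the other cathepsins was -0.0031, against 0.02 with them. In the knockout arrays 93860_i_at read 3542 and 2098, against 2078 and 3407 in the wild-type arrays. In the knockout arrays 93861_f_at read 5810.2 and 3477, against 3348 and 10088 in the wild-type arrays. Both were higher in knockout replicate 1 than in knockout replicate 2, the opposite order to 104696_at. Their log2 differences were 0.03 (SE 0.46) and -0.37 (SE 0.58), with overlapping genotypes.

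For 10 of these 12 probe sets the gap between the wild-type arrays was at least as large as that between the genotypes. The share over all tested probe sets was not computed, so nothing particular to cathepsins is read from this count. Ctsc is not set beside it, since its probe sets were chosen for their genotype differences. Wild-type replicate 1 was the lowest of the 4 arrays for 7 of the 12 and the highest for 3. Over all tested probe sets it was lowest for 39.2% and highest for 37.3%. The macrophage and dendritic cell marker list had 20 of 23 genes measured, and Siglec1 was the only one below the floor on every array. Its summed intensity was 206145 and 152120.4 in the knockout arrays, against 170847 and 176391 in the wild-type arrays. Of its 17 tested genes 10 measured higher and 7 lower, with a median of 0.06 on the log2 scale, which was -0.10 without wild-type replicate 1. Both knockout arrays were above both wild-type arrays for 3 and below for 3, beside 14.3% and 12.2% of all tested probe sets. With 17 genes, nothing is read from these counts. The 3 genes of smallest p were among those that did not overlap. Cd5l, a protein secreted by macrophages, read 10401 and 7048 in the knockout arrays, against 17294 and 14683 in the wild-type arrays. Marco, a scavenger receptor, read 9504 and 7391 in the knockout arrays, against 19298 and 11035 in the wild-type arrays. Itgax, an integrin of dendritic cells, read 11286 and 4542 in the knockout arrays, against 3275 and 3929 in the wild-type arrays. Wild-type replicate 1 was the lowest array for 7 of the 17 and the highest for 4. Adgre1, which encodes a macrophage surface protein, is named because of its values. It read 2349.9 and 2964 in the knockout arrays, against 123.5 and 3644 in the wild-type arrays. Adgre1 was thus low in wild-type replicate 1, while Cd5l, Marco and Csf1r, another marker of the list, were highest in that array. Csf1r read 24559 and 25539 in the knockout arrays, against 26915 and 26459 in the wild-type arrays. The part of these markers in the cathepsin values was not tested.

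Other cells could also carry cathepsin transcripts. Summed B cell markers, 12 of 13 measured, were 188668 and 158853 in the knockout arrays, against 333147 and 190196 in the wild-type arrays. Summed T and NK cell markers, 14 of 18 measured, were 58463 and 49533 in the knockout arrays, against 108213 and 63427 in the wild-type arrays. Exocrine pancreas markers, 15 of 24 measured, summed to 11628 and 13937 in the knockout arrays, against 95755 and 24762 in the wild-type arrays. These 3 sums were lower in both knockout arrays, though for B cells knockout replicate 1 was close to wild-type replicate 2. Neutrophil markers, 16 of 18 measured, summed to 540043 and 600370.0 in the knockout arrays, against 720194 and 181770 in the wild-type arrays. Erythroid markers, 15 of 22 measured, summed to 179507 and 341887 in the knockout arrays, against 509895 and 275456 in the wild-type arrays. No gene of these 5 lists was below the floor on every array, and their part in the cathepsin values was not tested.

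Genes that work with the cathepsins were read from 7 lists, chosen with earlier results of these data known. Of 85 distinct tested genes, 0 had a limma adjusted p under 0.05, beside 0.0537% of all tested probe sets. At an unadjusted p under 0.05 there were 4, of which 3 measured higher and 1 lower, beside 1.74% of all tested probe sets, 0.778% higher and 0.966% lower. The median difference over the 85 was 0.03 on the log2 scale.

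Proteases that cathepsin C activates were the first of these lists, with 10 of 22 genes tested. Of the 10, 8 measured higher and 2 lower, with a median of 0.34, and 3 had an unadjusted p under 0.05, all higher, beside the 0.778% above. The median ran from 0.29 without knockout replicate 2 to 0.54 without wild-type replicate 1. It was 0.28 with the floor at the 40th percentile and 0.57 without cross-hybridising probe sets. Elane, neutrophil elastase, read 6949.6 and 7673 in the knockout arrays, against 3092 and 1776 in the wild-type arrays (log2 1.64, SE 0.43, limma adjusted p = 0.992). Prtn3, proteinase 3, read 6674 and 6256 in the knockout arrays, against 3476 and 1479 in the wild-type arrays (log2 1.51, SE 0.49, adjusted p = 0.992). Ctsg, cathepsin G, a serine protease of neutrophil granules, was at 2554 and 2180.1 on the knockout arrays and 1618 and 432.1 on the wild-type arrays (log2 1.50, SE 0.62, adjusted p = 0.992). All 3 are also in the neutrophil list, of whose 14 tested genes 13 measured higher, with a median of 1.25. That list's median was 0.37 without wild-type replicate 2.

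Further cathepsins and relatives had 8 of 20 genes tested, 4 higher and 4 lower, with a median of -0.03, which ran from -0.32 to 0.12 with 1 array left out. Ctsf, cathepsin F, read 351.1 and 481.3 in the knockout arrays, against 835.6 and 704.5 in the wild-type arrays (log2 -0.90, SE 0.50, limma adjusted p = 0.992). Lgmn, legumain, an asparagine-specific protease that helps mature cathepsins, read 9201 and 5923 in the knockout arrays, against 2905 and 6648 in the wild-type arrays. It was lowest in wild-type replicate 1, as were Ctss and Ctsl.

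Cystatins, the cathepsin inhibitors, had 4 of 24 genes tested, with 1 higher and 3 lower and a median of -0.18. It was -0.41 without knockout replicate 1, 0.04 without knockout replicate 2 and -0.04 after quantile normalization, so its sign is not settled. Cst3, cystatin C, read 68671 and 54548 in the knockout arrays, against 80827 and 72360 in the wild-type arrays (log2 -0.32, SE 0.44, limma adjusted p = 0.992). Both knockout values were the lower ones, and a second Cst3 probe set gave -0.24 with overlapping genotypes. Kng1, kininogen, which carries cystatin domains, read 889.5 and 686 in the knockout arrays, against 1597 and 1484 in the wild-type arrays (log2 -0.98, SE 0.42, adjusted p = 0.992). Cst7, cystatin F, an inhibitor of cathepsin C in lymphocytes and myeloid cells, differed by 0.24 (SE 0.40).

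Lysosomal hydrolases had 20 of 38 genes tested, 5 higher and 15 lower, with a median of -0.08, which ran from -0.30 to 0.04 with 1 array left out. Smpd1, acid sphingomyelinase, gave -0.51, Acp2, lysosomal acid phosphatase, -0.34, and Tpp1, a tripeptidyl peptidase, 0.36, all with overlapping genotypes. Genes of the lysosomal membrane and of sorting had 18 of 28 tested, 12 higher and 6 lower, with a median of 0.12, which ran from 0.02 to 0.24 with 1 array left out. Laptm4a, a lysosomal membrane protein gene, read 31350 and 30573 in the knockout arrays, against 4478 and 32315 in the wild-type arrays, another gene set apart by wild-type replicate 1. Vps35, a part of the retromer sorting complex, gave 0.87 with overlapping genotypes, and Igf2r, a sorting receptor for lysosomal enzymes, 0.59. Both were likewise lowest in wild-type replicate 1. The proton pump that acidifies lysosomes had 15 of 17 tested, 9 higher and 6 lower, with a median of 0.13, which was -0.05 without wild-type replicate 1. Atp6ap2, an accessory subunit of the pump, gave 0.99 and Atp6v1d, a core subunit, 0.57. Both knockout arrays were above both wild-type arrays for each, as for 14.3% of all tested probe sets. Wild-type replicate 1 was the lowest array for each. Atp6ap2 read 5786 and 5344.5 in the knockout arrays, against 1692 and 4615 in the wild-type arrays. Class II antigen processing genes had 11 of 12 tested, 6 higher and 5 lower, with a median of 0.0007, which ran from -0.40 to 0.09 with 1 array left out. Ifi30, a lysosomal thiol reductase, gave 0.50, H2-Oa, a modulator of peptide loading, -0.42 and H2-Ab1, a class II beta chain, -0.44, all with overlapping genotypes.

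**Figure D4:**
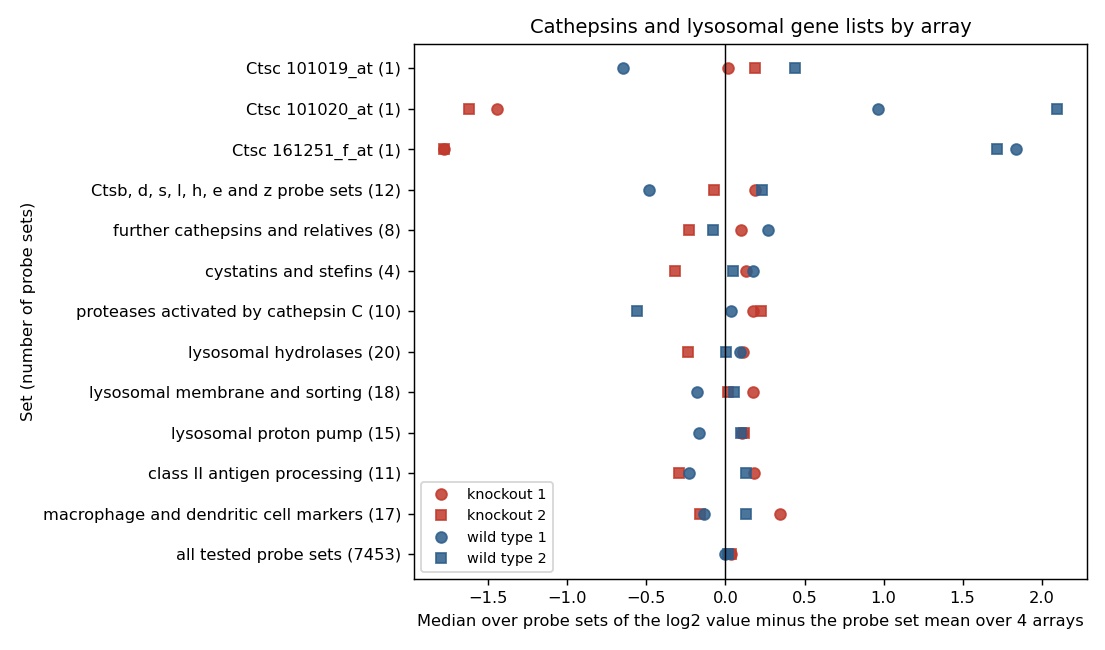
Median over probe sets of the log2 value minus the probe set's own mean over the 4 arrays, for each Ctsc probe set, the 12 other cathepsin probe sets, 7 lists of related genes, the macrophage list and all tested probe sets, with knockout in red and wild type in blue. Ctsc 101020_at and 161251_f_at put the knockout arrays at -1.78 to -1.44 and the wild-type arrays at 0.97 to 2.10, while every other set lies between -0.65 and 0.44 in all 4 arrays.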

How the data were processed

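Total RNA of spleen was measured, per the labels, and the authors deposited 1 linear intensity per probe set and array. How the authors made them is not given in the sources used here. Their 2% trimmed means were 2501.5 to 2502.0, so no further scaling was applied. No sample column was left unused and no 2 arrays were identical. Control probe sets (66 of 12488) were removed. Intensities below the pooled 25th percentile were raised to it before log2, and the 7453 probe sets whose mean log2 value lay above the 40th percentile were tested with limma 3.58.1 in R 4.3.3 (lmFit, eBayes with trend, Benjamini-Hochberg over all tested, threshold 0.05, two-sided). Symbols came from the platform annotation, updated by gene identifier: 10833 probe sets had 1 symbol, 396 several and 1193 none, and none was named from several. Lists were read on each gene's brightest tested probe set, and up to 3 genes per list of related genes were named by smallest p. The macrophage list was treated alike, a choice made after its values were seen. The procedure was tested on simulated data. The members, lists and tests were chosen with earlier results of these data known. With 4 arrays, their number limits the precision. Figures used matplotlib 3.10.9 in Python 3.11.15.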

Additional observations from a re-analysis of the deposited data

How the results depend on the processing

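The count of probe sets with an adjusted p under 0.05 was 4 and stayed within 1.5 times of it under the alternatives of scaling, floor, pseudocount, variance trend and array weights. With a replicate block it was 36, and with dim probe sets kept it was 0 by limma (339 of 12422 at an unadjusted p under 0.05). It came to 2 without cross-hybridising probe sets and to 3 to 13 with 1 array left out: 10 without knockout replicate 1 and 13 without knockout replicate 2. The labels do not pair samples by number, and deviations of same-numbered arrays correlated at 0.04. The block changed no cathepsin difference, since each is a mean over a balanced set. Ctsc 161251_f_at gave -2.19 with a floor at the 40th percentile and -4.70 with a pseudocount of 16, because its knockout values lie at the floor, and -3.61 to -3.50 with 1 array left out. Ctsc 101020_at gave -3.63 to -2.50 and 101019_at -0.34 to 0.75 with 1 array left out, and only without wild-type replicate 1 did 101019_at measure below 0. The median of the 12 other cathepsin probe sets lay at -0.11 to 0.41 with 1 array left out, the highest value being that from wild-type replicate 1 alone. With 1 array left out or with the block, a single difference cannot move by more than the spread between replicates as measured here. The count of such moves for these probe sets, 1 of 108 cases, therefore says little about how firm they are. With 1 array left out, Ctse 104696_at ran from -0.56 to 1.78 and Ctsz from -1.75 to 0.13. The list medians, which the block cannot move either, moved by more than that spread in 8 of 130 cases.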
